A study of Mus musculus with 15 samples.

Results

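The comparison described here set knee joint synovium with severe swelling against knee joint synovium with moderate swelling in mouse collagen-induced arthritis. It was chosen by the grade in the sample titles and holds 6 of the 15 arrays of the study, 3 severe and 3 moderate. In this disease model (CIA), mice are made to react against type II collagen, the main collagen of cartilage, and develop swollen joints. Both groups came from animals injected on day 0 with 100 µg of this collagen in FCA and again on day 21 with 100 µg, so that they shared the immunization and differed in the grade of the joint. The other 9 arrays were healthy naive synovium and CIA synovium with no or mild swelling, 3 of each, and the same injections are listed for the naive samples too. No source used here states strain, age, sex, day of dissection or any pooling of animals. The labels number the samples as replicates but do not say that they came from separate animals, so the spread behind each p-value is that of the samples and could be technical.

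The synovium is the thin tissue that lines a joint, with a lining layer of macrophages and lubricin-producing fibroblasts over a looser layer of vessels, fat and fibroblasts. In inflammatory arthritis it thickens into an invasive pannus, filled with neutrophils and macrophages, whose fibroblasts release proteases and whose myeloid cells can become bone-resorbing osteoclasts. Swelling is graded on the joint and combines fluid, infiltrating cells and growth of this tissue. RNA came from whole tissue. A lower level can therefore come from fewer cells of a type or from less RNA per cell, and these cannot be told apart.

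Each array gave a signal, a brightness on a linear scale, for 45101 probe sets. Analyses used log2(signal + 16), 1 probe set per gene, and 14314 genes above a filter on low signals. The 2% trimmed mean of the signals was 150.001 on every array. The median signal was 38.7 to 45.1 on the moderate arrays and 44.7 to 47.6 on the severe arrays. The ratio of 3′ to 5′ signal of the actin control was 1.19 to 1.27 on the moderate and 1.21 to 1.27 on the severe arrays. The control for 18S ribosomal RNA varied widely in both groups, from 163.4 to 3868.8 and from 504.9 to 6237. Prg4, the lubricin gene that marks lining fibroblasts, read 5345.4 to 8048.7 on the moderate and 7686.5 to 9997.6 on the severe arrays. Transcripts of skeletal muscle fibres were also measured on every array, as given with the muscle genes.

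No gene differed between severe and moderate swelling after adjustment. With limma and Benjamini-Hochberg adjustment, 0 of 14314 genes had an adjusted p under 0.05 (0%), and the smallest adjusted p was 0.744. At an unadjusted p under 0.05 there were 888 genes (6.2%), of which 491 had a higher mean in severe swelling (3.43%) and 397 a lower one (2.77%). The 3 severe and 3 moderate values did not overlap for 1583 genes (11.1%), with 989 higher in severe (6.91%) and 594 lower (4.15%). Of all genes tested, 8021 (56%) had a higher mean in severe swelling, but the balance of directions rests on the scaling: the median difference of all genes was 0.03 here, -0.08 with array medians aligned and -0.25 with arrays scaled on hybridization controls. Without severe replicate 2, 2 genes had an adjusted p under 0.05, both lower in severe swelling: Hnrnpul1 at -0.87 and Trnt1 at -1.17 (limma, adjusted p = 0.0445 for each).

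The intervals of the differences bound how far the grades could lie apart. The median difference on the log2 scale, severe minus moderate, was 0.03, and the quartiles were -0.11 and 0.17. For 12933 genes (90.4%) the whole 95% interval lay within a 2-fold change in either direction, and for 5463 genes it lay within 0.5 on the log2 scale. The median half-width of the interval was 0.41. With genes put into 4 classes of equal size by mean signal, 74.9% of intervals lay within 2-fold in the dimmest class, at 2.95 to 54.1, against 96.1% in the brightest class, at 383 to 10100. The difference exceeded 1 in size for 22 genes, 13 higher and 9 lower in severe swelling, none of which passed the adjusted test.

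**Figure D1:**
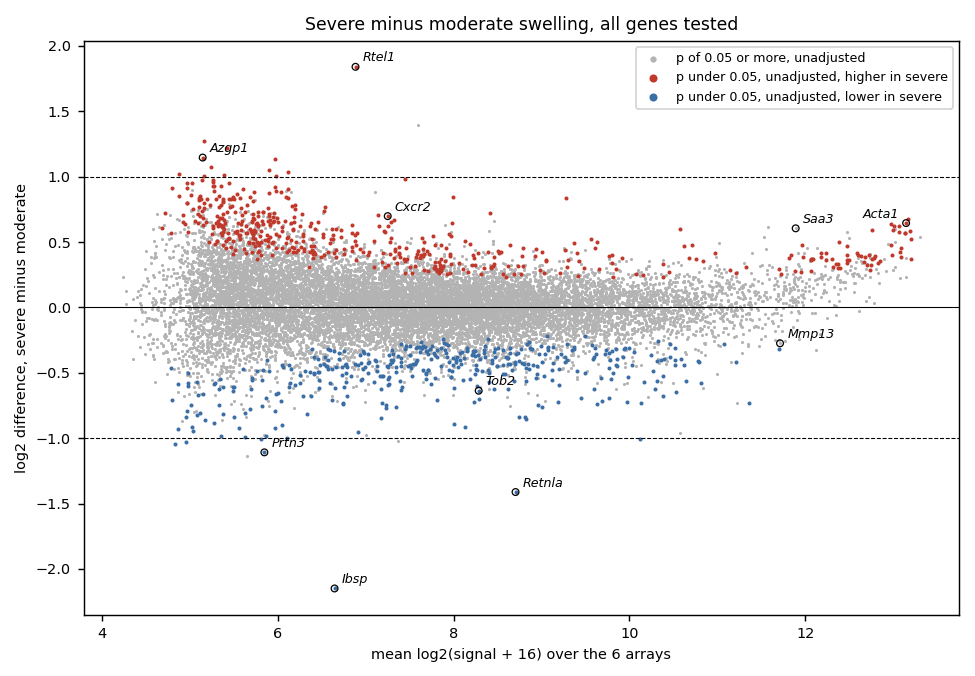
Difference between severe and moderate swelling (vertical axis, log2 scale) against the mean of log2(signal + 16) over the 6 arrays (horizontal axis), 1 point per gene for the 14314 genes tested; dashed lines mark 1 on the log2 scale. Red and blue points are the 491 and 397 genes with an unadjusted p under 0.05, none of which passed adjustment, and the genes at the bright end on the right lie mostly above 0.

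The fit over single probe sets gave 1 call among 31485 (0.00318%), where 2431 had an unadjusted p under 0.05 (7.72%). The called probe set belongs to Lamc1, the gamma 1 chain of the laminins of basement membranes. In the order of replicates 1, 2 and 3, which is kept below, it read 67.3, 60.4 and 53.6 on the moderate arrays and 235.1, 148.4 and 175.8 on the severe arrays. All 3 severe values lay above all 3 moderate values, by 1.39 ± 0.17 on the log2 scale (SE, n = 3 in each group; limma, adjusted p = 0.0147). Of the severe values, 1 lay within the 138.2 to 149.5 of naive synovium and the others above it, and the moderate values lay below the 103.6 to 119.1 of mild swelling.

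The other Lamc1 probe set, which is brighter and stood for the gene, did not show this. It read 740.2, 705.1 and 556.2 with moderate and 722.2, 555.3 and 628.2 with severe swelling, a difference of -0.07 (95% interval -0.39 to 0.25), and the groups overlapped. The call of the dimmer probe set was lost in most fits that left out 1 array: without severe replicate 1 or 3, or moderate replicate 1, 2 or 3, the adjusted p was 0.128, 0.106, 0.0682, 0.123 and 0.113 (limma). It was 0.0535 with array medians aligned, 0.273 with arrays scaled on hybridization controls and 0.507 with the 6 arrays fitted alone. Without severe replicate 2, 15 probe sets were called. The next probe set by p belonged to Nktr, a cyclophilin-related gene of natural killer cells, at 0.91 ± 0.14 (SE; limma, adjusted p = 0.0743), but 2 other probe sets of the gene gave -0.08 and -0.26.

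Among the genes higher in severe swelling, the 10 lowest p-values belonged to Cables2, Scgb1b27, Myh7b, Fbxo36, Azgp1, Slc22a13, C330022C24Rik, Fbxl5, Thoc2 and Cpvl, each with a limma adjusted p of 0.744. Cables2, which encodes a cyclin-dependent kinase adaptor, read 185.4, 181.9 and 192.7 on the moderate arrays and 288.8, 275.4 and 284.5 on the severe arrays. The groups did not overlap and each was tight; the difference was 0.56 ± 0.12 (SE). Naive synovium averaged 220.1 and mild swelling 180.9, so the severe mean of 282.9 lay above both.

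Fbxl5, the iron-sensing subunit of a ubiquitin ligase, read 607.7, 559.2 and 471.7 with moderate and 763.1, 706.3 and 845.1 with severe swelling, a difference of 0.49. Thoc2, a subunit of the complex that couples transcription to messenger RNA export, read 207.7, 261.7 and 225.3 against 343.5, 313.8 and 332. Neither gene's groups overlapped, and both intervals lay within 2-fold, at 0.23 to 0.75 for Fbxl5 and 0.22 to 0.75 for Thoc2. Most of the others were dim. Azgp1, a secreted zinc-binding glycoprotein linked to lipid breakdown, read 10.2, 5.7 and 7.7 against 47.6, 18.2 and 51.2, and Myh7b, a slow-type myosin heavy chain, read 18.6, 2.5 and 8.7 against 33, 38.3 and 29.1. Their moderate values lay near the bottom of the scale, where the added 16 shrinks a fold change.

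Among the genes lower in severe swelling, the 10 lowest p-values belonged to Tob2, Zfhx4, Aars2, Ajuba, Klhl28, Zfp874a, Trnt1, Nrip2, Idi1 and 6330409D20Rik. Tob2, a member of the antiproliferative BTG and Tob family, had the lowest p of all genes. It read 394.6, 377.1 and 348.5 with moderate and 241.6, 227.5 and 233.6 with severe swelling. The severe values lay below every moderate value and also below the means of naive (479) and mild (349.2) synovium. The difference was -0.64 ± 0.12 (SE; limma, unadjusted p = 5.51e-05, adjusted p = 0.744).

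Ajuba, a LIM protein of cell junctions that binds Hippo pathway kinases, read 191.3, 192.1 and 200.4 against 123.6, 116.2 and 127.4. Its moderate values stood above both neighbours, since mild swelling averaged 120.9 and the naive arrays 67.8. Zfhx4, a zinc-finger homeobox transcription factor, read 145.6, 174.1 and 223.7 against 107.6, 109.8 and 83.9. Trnt1, which adds the CCA end to transfer RNAs, read 349.8, 296.7 and 359.4 against 135, 261.6 and 144.7, with severe replicate 2 nearest to the moderate arrays. Idi1, an isomerase of the cholesterol pathway, read 87.3, 88.3 and 91.1 against 59.8, 60.1 and 55.4, a difference of -0.50.

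The genes with the lowest p-values had little backing from other probe sets. Of these 20 genes, 8 had another tested probe set, 13 probe sets in all. The difference had the same sign in 6 of the 13 and an unadjusted p under 0.05 with that sign in 2, a probe set of Tob2 and one of Idi1. Some that had the same sign lay near 0: the other 2 probe sets of Thoc2 differed by 0.02 each and that of Trnt1 by -0.02. Of the other probe sets of Tob2, 1 of 4 had the same sign.

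**Figure D2:**
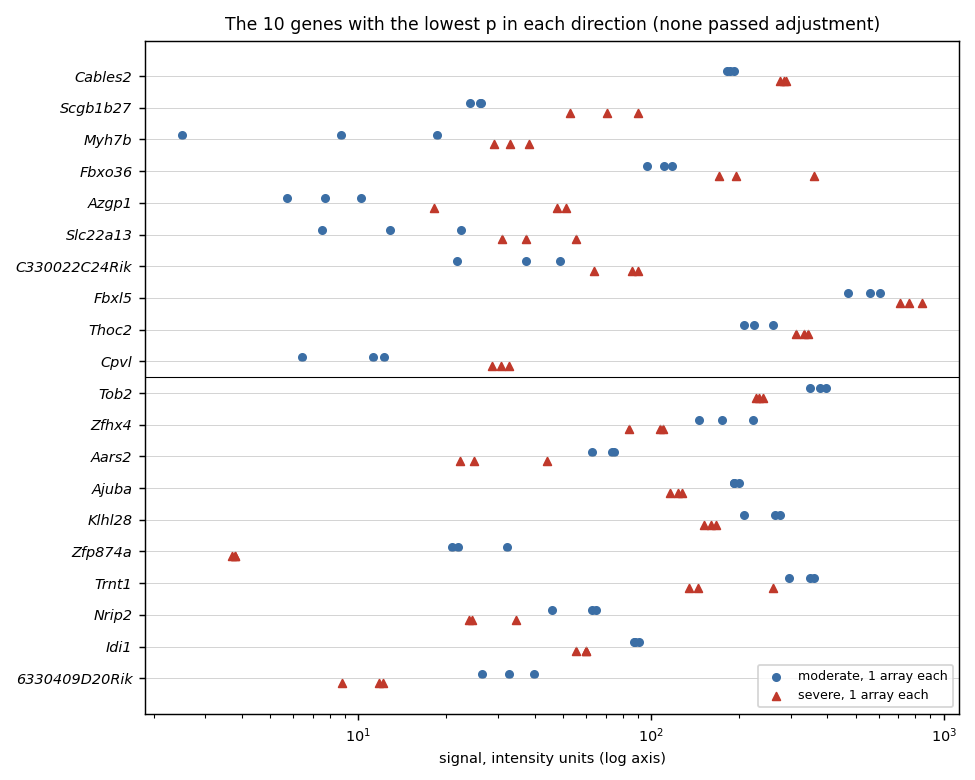
Signal on each of the 3 moderate (blue circles) and 3 severe (red triangles) arrays, on a log axis, for the 10 genes with the lowest p higher in severe swelling (upper block) and the 10 lower in it (lower block). The groups do not overlap for any of the 20, but the limma adjusted p was 0.744 for each.

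The alarmins and acute-phase genes of the inflamed joint overlapped between the grades. S100a8 and S100a9, which form calprotectin, the main cytosolic protein of neutrophils, were at 2784.9 to 3643.1 and 2725.8 to 4637.9 on the moderate arrays. On the severe arrays they read 4720.5, 3397.8 and 3595.4, and 5456.9, 3692.7 and 5048.4. The differences were 0.28 (95% interval -0.87 to 1.44) and 0.42 (-0.61 to 1.45), so that a 2-fold excess in severe swelling lies inside both intervals, and that of S100a8 was -0.02 on hybridization controls. Saa3, an acute-phase apolipoprotein made by macrophages and fibroblasts, read 3053.3, 3949.6 and 2382.8 against 4389.4, 3620.4 and 6400, a difference of 0.61 (-0.02 to 1.23). Slpi, which inhibits neutrophil elastase, differed by 0.61 (-0.11 to 1.34).

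Of 16 tested genes of neutrophils and monocytes, 11 had a higher mean in severe swelling, with a median of 0.11 that became -0.14 on hybridization controls. In this list 1 gene had an unadjusted p under 0.05 (6.25%, against 6.2% of all genes) and 2 did not overlap between the groups, against 11.1% of all genes. The first was Cxcr2, the neutrophil receptor for chemokines such as Cxcl5. It read 102, 99 and 109.9 with moderate and 169.3, 145.2 and 228.4 with severe swelling. All severe values were higher, by 0.70 ± 0.20 (SE; limma, unadjusted p = 0.00329, adjusted p = 0.744). Its ligand Cxcl5 differed by -0.04 (-0.49 to 0.41).

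Cytokines did not pass the test in either direction. Il1b read 785, 866.4 and 515.8 against 935.7, 662.7 and 802, and Il6 read 743.2, 438.6 and 370 against 284.6, 421.5 and 598.7. Both overlapped, with differences of 0.16 and -0.24 whose signs were not stable: Il1b stood at -0.14 on hybridization controls and -0.06 without moderate replicate 3, and Il6 at 0.02 and 0.05 without severe or moderate replicate 1. Tnf was near the bottom of the scale, at 5.7 to 29.2 on the moderate and 9.5 to 38.4 on the severe arrays. Clcf1, a cytokine of the interleukin-6 family, read 140.3, 80.7 and 93.7 against 50.8, 76.5 and 65. Its severe values were all lower on this probe set, at -0.58 (-1.08 to -0.07), but the difference was 0.02 after quantile normalization, where another probe set of the gene was the brightest. Tnfsf11, which encodes RANKL, the signal for osteoclast formation, read 223.5, 183.6 and 199.9 against 134.7, 128.8 and 170.1. These groups did not overlap either, but the interval of the difference, -0.45 (-1.08 to 0.18), held 0.

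Chemokines numbered 24, of which 14 were higher and 10 lower, where 56% of all genes were higher. An unadjusted p under 0.05 was reached by 1 of them (4.17%, against 6.2% of all genes). This was Ccl11, eotaxin, which attracts eosinophils, at 105.3, 86.4 and 89.3 against 57.4, 29.8 and 92.7; severe replicate 3 lay among the moderate values. Of 18 macrophage markers none had an unadjusted p under 0.05 and 16 had an interval within 2-fold (88.9%, against 90.4% of all genes). Of these markers 12 were higher and 6 lower in severe swelling. Their median was 0.11, or -0.01 with medians aligned and -0.19 on hybridization controls. Among the 6 was Cd163, a haemoglobin scavenger receptor of resident macrophages, at 201.4, 139 and 100.7 against 94.5, 50 and 129.3. The 10 T cell and 10 B cell and plasma cell markers had medians of 0.03 and 0.19, with no unadjusted p under 0.05; these turned to -0.19 and -0.12 on hybridization controls, and that of T cells to -0.04 with medians aligned.

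Genes of tissue breakdown had levels in severe swelling that overlapped those in moderate swelling. Mmp13, the collagenase that cuts type II collagen, read 2914.2, 4767.6 and 3571.8 on the moderate and 3554.1, 3751.6 and 2099.4 on the severe arrays. The difference was -0.27, with a wide interval of -1.82 to 1.27. Mmp3, stromelysin, read 3476, 5656.1 and 3883.5 against 5659.7, 3298.2 and 5076.6, a difference of 0.10 that was -0.08 after quantile normalization, -0.02 with medians aligned and -0.21 on hybridization controls. Of 18 tested metalloproteinase and ADAMTS genes, 11 were higher and 7 lower in severe swelling, none with an unadjusted p under 0.05. Intervals lay within 2-fold for 16 of the 18 (88.9%, against 90.4% of all genes).

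Osteoclast genes overlapped as well, except for Tnfsf11 and Car2. Ctsk, the collagen-degrading protease of osteoclasts, read 2781.9, 3798.2 and 3000.4 against 3966.4, 2479.3 and 4000.9. Acp5, the tartrate-resistant acid phosphatase used to stain them, read 1013, 1447 and 864.4 against 1353.1, 602.3 and 1376.2. In both genes severe replicate 2 was the lowest of the 6 arrays, and the differences were 0.10 and -0.06. That of Ctsk was -0.01, -0.02 and -0.21 under the 3 other scalings, and that of Acp5 was 0.33 without severe replicate 2. Of 14 tested osteoclast genes, 8 were higher and 6 lower, and the summed signal of the list was 6444 to 8212 with moderate and 5284 to 8557 with severe swelling. Car2, the carbonic anhydrase that supplies acid for resorption, had the lowest p, at 77.8, 199.3 and 78.1 against 73.9, 53.2 and 69.5 (limma, unadjusted p = 0.027).

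Cartilage genes also overlapped, except for Cytl1, which was dim. Col2a1 read 129.7, 268 and 295.1 against 307, 154.6 and 145, and Acan, which encodes aggrecan, read 253.7, 452.4 and 423.6 against 559.3, 255.2 and 307.1. For each, 1 severe array was the highest of the 6 and the other two lay among or near the lowest. Of 17 tested cartilage genes, 10 were higher and 7 lower, with none at an unadjusted p under 0.05.

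The largest difference of any gene was in bone sialoprotein, Ibsp, a matrix protein of mineralizing tissue. Ibsp read 55.4, 396 and 303 on the moderate arrays and 109.8, 16.9 and 10 on the severe arrays, against a naive mean of 0.733. Moderate replicate 1 lay below severe replicate 1, so the groups overlapped. The difference was -2.15 ± 0.70 (SE; limma, unadjusted p = 0.00778, adjusted p = 0.744). It was called in 1 alternative, scaling on hybridization controls, at -2.37 (adjusted p = 3.36e-04). The other 4 tested genes of the osteoblast and bone list did not share a direction. Sp7, the osteoblast transcription factor osterix, read 25.4, 66.2 and 51.8 against 78.2, 69.5 and 88.7. Col1a1 was higher too on its brighter probe set but not on its other one, while Alpl and Omd had differences of -0.28 and -0.36.

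Of the 5 tested granule genes of marrow precursors, Prtn3, Elane and Mpo were highest on 1 moderate array, and Ms4a3 and Fcnb were not. Prtn3, proteinase 3, read 37.9, 128.1 and 61.8 with moderate and 16.1, 35.5 and 20.5 with severe swelling, a difference of -1.11 (95% interval -1.79 to -0.43). Mpo and Elane were also highest on moderate replicate 2, at 186.7 and 74.6, while Ms4a3 and Fcnb differed by 0.01 and 0.17. Ngp, a granule protein of maturing neutrophils from the neutrophil list, read 70.4, 773.4 and 177 against 119.9, 133.8 and 61.1. The summed signal of the 5 tested genes of this list was 502.6 on that array, 159.3 and 305.3 on the other two moderate arrays, and 196.5 to 232.8 on the severe arrays. Of the 5 tested red cell markers, Slc4a1 and Alas2 were highest on the same array, at 103.7 and 87.9, and Hba-a1, Tfrc and Klf1 were not. The summed signal of the red cell list was 854.4 to 1122 with moderate and 747.8 to 1014 with severe swelling. Marrow in the dissected tissue was not tested.

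Most of the brightest genes had a higher mean in severe swelling, as far as the scaling of the arrays is taken as given. Of the 143 genes in the top 1% by signal, which were set apart after the values were seen, 132 had a higher mean in severe swelling, with a median difference of 0.26, against 0.03 for the other genes. The groups did not overlap for 25 of the 143, against 11.1% of all genes. An unadjusted p under 0.05 was reached by 50 of the 143, against 6.2% of all genes. After quantile normalization, which gives all arrays the same distribution of signals, their median was -0.01. The highest signal on an array was 6739.2, 10619.9 and 9297.8 with moderate and 12574.3, 9546.5 and 15252.4 with severe swelling. Moderate replicate 1 had the lowest and severe replicate 3 the highest ceiling, and the part of this range in the differences of bright genes was not tested beyond that normalization.

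Fast-fibre contractile genes of skeletal muscle were 16 of those 143. In this list of 18 tested genes 17 were higher in severe swelling, with a median of 0.37, or 0.03 after quantile normalization. Of them 10 had an unadjusted p under 0.05 (55.6%, against 3.43% of all genes in that direction). That threshold was also passed by 50 of the 143 brightest genes, in either direction. Acta1, skeletal actin, read 5146.6, 10148.3 and 7255.6 with moderate and 11027.2, 8837 and 14914.3 with severe swelling, and severe replicate 2 lay below moderate replicate 2. The summed signal of the list was 82940 to 132100 and 123600 to 177500. Slow-fibre genes did not share this: of 13 tested, 4 were higher and 9 lower, with a median of -0.09. The summed signal was 6031 to 6347 against 5620 to 5879. The median level relative to naive was instead -1.66, -2.17 and -1.75 with moderate and -1.23, -1.53 and -1.74 with severe swelling. The groups did not overlap for 2 members, both higher in severe swelling, against 6.91% of all genes in that direction. Myh7, the slow myosin heavy chain, was at 124.5, 44.6 and 104.3 against 124.3, 26.6 and 133.6.

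Fibrillar collagens stood in the same bright range. Col1a1 read 5121, 8946 and 6610.9 against 10370, 7699.8 and 13190.9, and Col1a2 read 5364.4, 9724.4 and 7439.4 against 12086.7, 8750.6 and 14919.4. As with the muscle genes, severe replicate 2 lay below moderate replicate 2. The differences were 0.60 (95% interval -0.04 to 1.24) and 0.67 (0.17 to 1.17). The other Col1a1 probe set did not show this. It read 1646.5, 3039.9 and 3192.4 against 2634.8, 2339.9 and 2381.9, a difference of -0.04 (-0.55 to 0.47). In all, 18 of 24 tested genes of fibroblast matrix were higher in severe swelling, against 56% of all genes. Of the 24, 2 had an unadjusted p under 0.05 (8.33%, against 6.2% of all genes). The list median was 0.25, which became 0.05 after quantile normalization and -0.06 on hybridization controls. The 6 members with a lower mean included Col12a1 and Fap, at -0.41 and -0.18. Ribosomal protein genes, 11 of which were among the 143, had a median of 0.22, with 15 of 18 higher, but -0.06 after quantile normalization and -0.09 on hybridization controls.

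**Figure D3:**
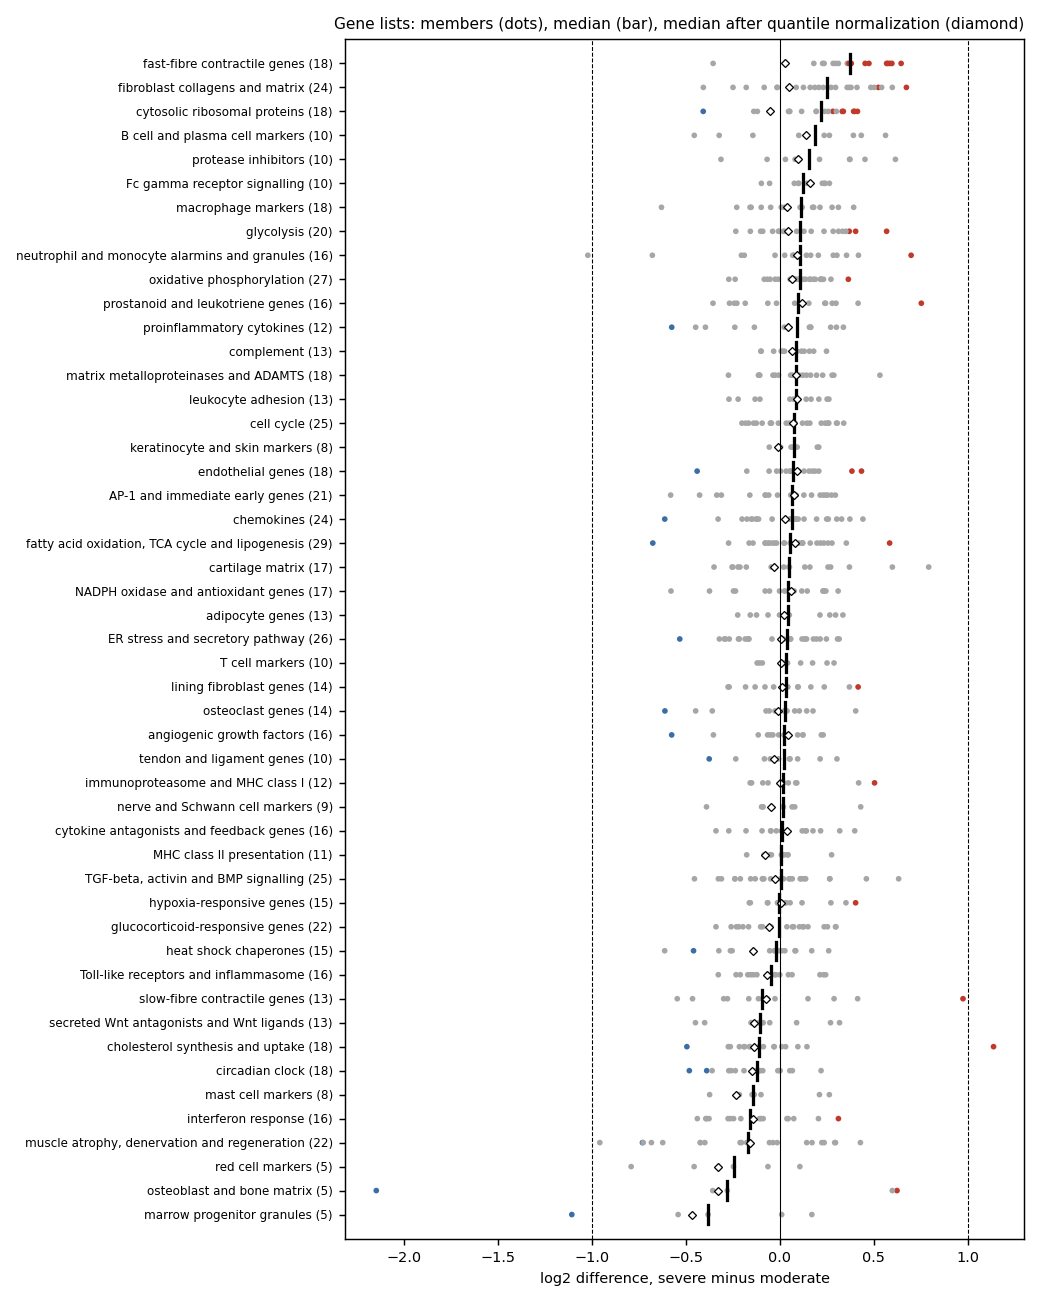
Difference between severe and moderate swelling (horizontal axis, log2 scale) for the tested members of 49 gene lists (number of genes in brackets), ordered by the list median (bar); red and blue dots are members with an unadjusted p under 0.05, and the diamond is the median after quantile normalization. Fast-fibre, fibroblast matrix and ribosomal medians of 0.37, 0.25 and 0.22 move to 0.03, 0.05 and -0.06, while most other medians lie within 0.2 of 0.

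The genes of oxidative phosphorylation were bright on these arrays, and all 27 tested had an interval within 2-fold, against 90.4% of all genes and 96.1% of the brightest class; 20 were higher and 7 lower in severe swelling, and the median of 0.11 turned to -0.02 with medians aligned and -0.21 on hybridization controls. Cox6c, a subunit of cytochrome oxidase, read 4033.4, 5709 and 5402.8 against 6123.4, 5812.3 and 7471.4. It was the 1 member with an unadjusted p under 0.05 (3.7%, against 6.2% of all genes). All 20 tested glycolytic genes were within 2-fold too. Of them 3 had an unadjusted p under 0.05 (15%, against 6.2% of all genes). These were bright muscle-type or general enzymes: Aldoa, Pfkm and Pgk1, at 0.57, 0.37 and 0.40. The median of the glycolytic list was 0.11, or 0.04 after quantile normalization, -0.01 with medians aligned and -0.19 on hybridization controls.

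Clock, cholesterol, Wnt and interferon genes were among the lists in which most members had a lower mean in severe swelling. Of all 14314 genes tested, 6293 had a lower mean. The medians of these 4 lists stayed negative after quantile normalization. The other scalings, medians aligned and hybridization controls, lowered the median of all genes to -0.08 and -0.25. A sign that stayed negative there is therefore no further support. Of 18 circadian clock genes 14 were lower, with a median of -0.12 (-0.15 after quantile normalization). Per2, a repressor of the clock, read 120.7, 169.4 and 160.6 against 105.5, 101.7 and 98.8, without overlap, and Cry2, its partner, read 162.3, 174.9 and 195.8 against 98.8, 194.1 and 116.9. The time of day of dissection was not given in the sources used here. Arntl, the activator opposite to Per2 in phase, and Dbp, a clock output gene, differed by -0.12 and -0.14, and both overlapped.

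Of 18 genes of cholesterol synthesis and uptake 13 were lower, with a median of -0.11, and of 13 secreted Wnt antagonists, ligands and targets 10 were lower, also with a median of -0.11. In the first list 1 gene stood apart: Mvk, mevalonate kinase, read 12.6, 71.2 and 14.2 against 88, 46.5 and 107.3, at 1.14 (95% interval 0.15 to 2.12). Of 16 interferon-response genes 11 were lower, with a median of -0.16. Ifit3, an interferon-induced antiviral gene, read 630.2, 767 and 413.8 against 518.3, 348.9 and 474.8, while Irf1, a transcription factor of the interferon response, read 569.8, 515.2 and 558.5 against 770, 598.2 and 691.6. Irf1 was the 1 member of the list with an unadjusted p under 0.05 in the limma fit (6.25%, against 6.2% of all genes).

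Of 18 tested endothelial genes, 14 had a higher mean in severe swelling and 4 a lower one, where 56% of all genes were higher. Their median of 0.07 turned to -0.045 with medians aligned and -0.215 on hybridization controls. An unadjusted p under 0.05 was reached by 2 higher genes and 1 lower gene (16.7%, against 6.2% of all genes). Cdh5, the cadherin of endothelial junctions, read 419.1, 439.1 and 414.5 against 230.7, 366.9 and 344.9, all severe values lower, at -0.44 (95% interval -0.77 to -0.11). Kdr and Flt1, the receptors of vascular endothelial growth factor, were higher, at 0.43 and 0.38, and Pecam1, a general endothelial marker, differed by 0.07. Of 18 endothelial genes 17 had an interval within 2-fold (94.4%, against 90.4% of all genes). Chaperones of the secretory pathway had Dnajb9, a target of the unfolded protein response, at 1489.6, 1110.4 and 1041.7 against 715.6, 995.8 and 783.6. The groups did not overlap and the difference was -0.53 ± 0.14 (SE; limma, unadjusted p = 0.00192, adjusted p = 0.744), while all 26 genes of its list had intervals within 2-fold.

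Genes called between mild swelling and naive synovium were then followed. The contrast that chose them holds none of the 6 arrays, but the spread, the filter and the choice of probe set came from all 15. Against naive synovium, 3303 genes (23.1%) were called higher in mild swelling and 2440 (17%) lower. Between moderate and severe swelling the first set had 46 genes higher and 134 lower at an unadjusted p under 0.05, 5.45% of it against 6.2% of all genes, and 3106 intervals within 2-fold, 94% against 90.4%. The second set had 97 higher and 46 lower, 5.86% of it, and 2321 intervals within 2-fold, 95.1%. Among all genes, 3.43% were higher and 2.77% lower at that threshold. At it the first set leaned to lower and the second to higher values in severe swelling. The groups did not overlap for 140 genes higher and 270 lower in the first set. In the second these were 177 and 70, against 6.91% and 4.15% of all genes. The medians were 0.01 and 0.03, against 0.03 for all genes, and turned to -0.11 and -0.09 with medians aligned and to -0.28 and -0.26 on hybridization controls. No gene of either set passed the adjusted test.

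The step just below, from mild to moderate swelling, gave other counts on the same number of arrays. It shares the 3 moderate arrays with the comparison of severe and moderate swelling, so its values are set side by side only. In limma 964 genes were called (6.73%), 473 higher in moderate swelling (3.3%) and 491 lower (3.43%). This number depended on single arrays: it was 398, 197 and 2033 without mild replicate 1, 2 and 3, and 593, 239 and 385 without moderate replicate 1, 2 and 3. The median size of a difference was 0.23 from mild to moderate and 0.14 from moderate to severe, and 360 against 22 genes differed by more than 1.

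For the genes described above the steps read as follows. Mmp13 rose by 3.62 from mild to moderate swelling (limma, adjusted p = 0.0121) and differed by -0.27 from moderate to severe. Ctsk, Acp5, Tnfsf11 and Dcstamp, a fusion protein of osteoclasts, rose by 1.54, 1.81, 1.20 and 1.24 (limma, adjusted p = 0.0178, 0.0101, 0.0259 and 0.0126), against 0.10, -0.06, -0.45 and -0.36. Of the oxidative phosphorylation genes 17 of 27 were called lower in moderate than in mild swelling, with a median of -0.60, against 0 called and a median of 0.11 in the next step. Called higher, against 3.3% of all genes, were 7 of 14 osteoclast genes, 5 of 18 metalloproteinase and ADAMTS genes, 5 of 24 fibroblast matrix genes, 4 of 16 interferon-response genes and 4 of 17 cartilage genes. In severe over moderate swelling 0 of each were called.

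The difference between the 2 steps was itself tested, as severe minus moderate less moderate minus mild. In limma 0 genes passed, with a smallest adjusted p of 0.241, and 1569 genes (11%) had an unadjusted p under 0.05. The count was 72 without mild replicate 3. The lowest p-values belonged to Ajuba, at -1.23 ± 0.22 (SE), Tmem37, a calcium channel subunit-like protein, at 1.29, and Gem, a small GTPase, at -1.46. Gem read 179.7, 169.9 and 215.8 with moderate and 135.7, 128.2 and 103.8 with severe swelling, and averaged 94 with mild swelling. A call in 1 step and none in the other is thus not shown to be a difference between the steps for any single gene.

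**Figure D4:**
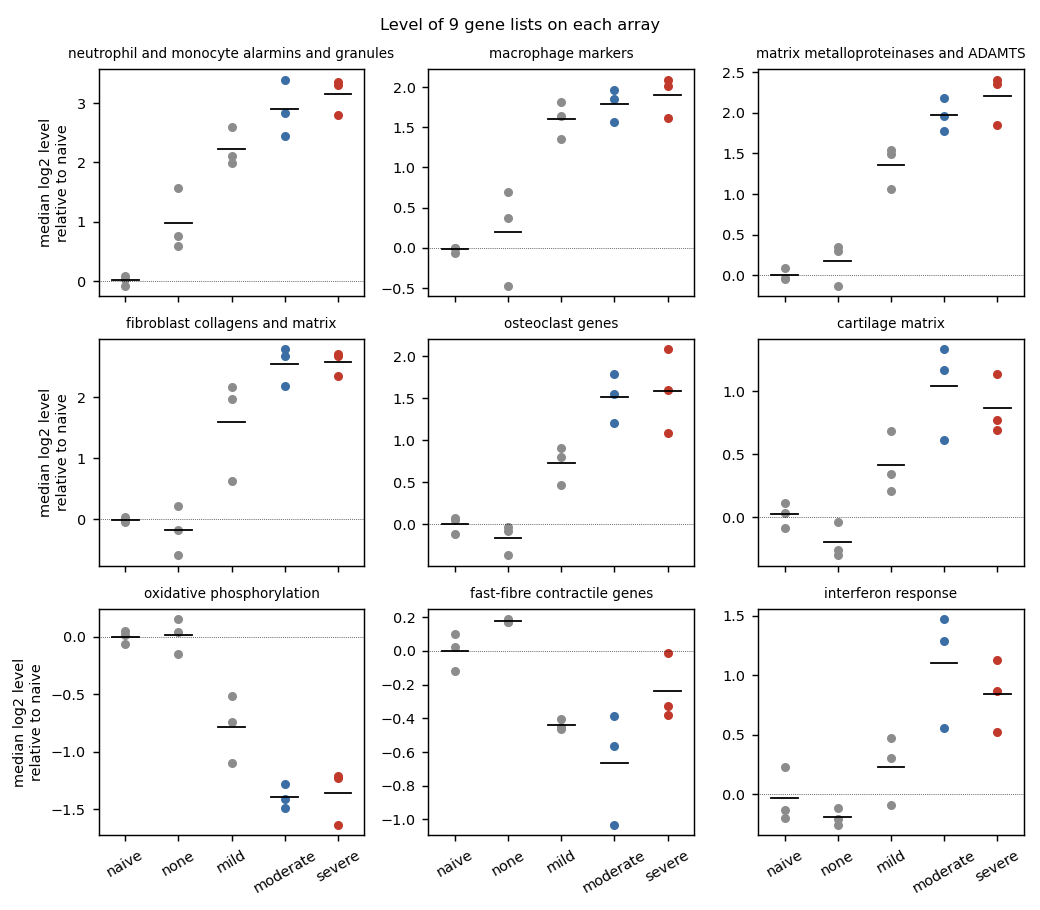
Median log2 level of 9 gene lists on each array relative to the naive mean (vertical axis), by group (horizontal axis); points are arrays, bars are means of 3 arrays, and moderate and severe arrays are in blue and red. For osteoclast genes the moderate arrays lie at 1.20 to 1.79 and the severe arrays at 1.09 to 2.08, and these 2 groups overlap in each panel but that of the fast-fibre genes.

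The 6 arrays did not sort by grade. Euclidean distances over all tested genes were 41.8 to 48.1 between moderate arrays, 44.9 to 54.7 between severe arrays and 37.7 to 56.2 across the grades, with medians of 46.1, 54.2 and 51.4. The closest pair of all 15 pairs was moderate replicate 3 with severe replicate 2. On the first principal component of the 6 arrays, with 40.9% of their variance, the split crossed the grades: it placed moderate replicates 1 and 3 and severe replicate 2 on one side, at -16.8, -21.9 and -20.8, and moderate replicate 2 and severe replicates 1 and 3 on the other, at 12.2, 23.6 and 23.6.

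**Figure D5:**
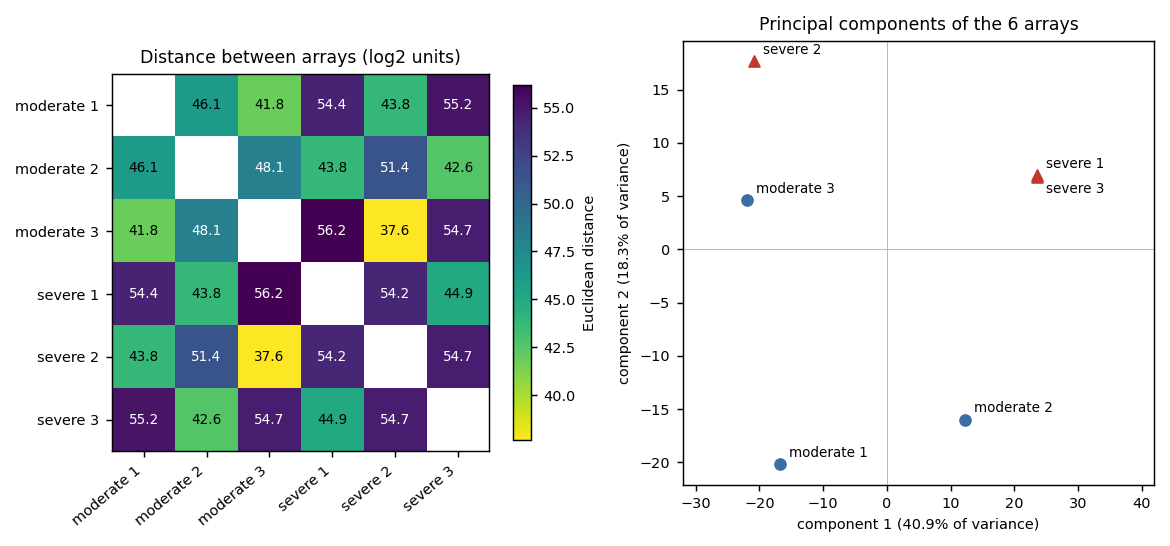
Left, Euclidean distance between the 6 arrays over all tested genes in log2 units; right, the arrays on the first 2 principal components (40.9% and 18.3% of the variance), moderate as blue circles and severe as red triangles. The closest pair, at 37.7, is 1 moderate and 1 severe array, and the first component does not part the grades.

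The genes given next, except Trim63, have a high weight on that component. They were picked from the values of these arrays and get no test. Gadd45a, a stress-response gene raised in denervated muscle, read 1747.5, 767.4 and 2463.8 with moderate and 730.9, 2227.3 and 476.9 with severe swelling. Sln, sarcolipin, a regulator of the muscle calcium pump, read 1956.7, 1625.2 and 2958.4 against 1306.3, 2396.1 and 395.2, and Krt18, a keratin of simple epithelia, read 144.7, 67 and 485.8 against 98.1, 597 and 65.1. In these 3 genes the arrays on one side of the component lie above the arrays on the other, whatever their grade. Trim63, a ubiquitin ligase of muscle atrophy, split the same arrays, at 3637.4, 2745.6 and 3874.2 against 1635.7, 4074.1 and 1252.2.

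Coro6, a coronin of muscle, split the same arrays: it read 795.9, 236.9 and 745.5 against 233.6, 790.4 and 241, and lay at 668.3 to 843.6 on all 9 other arrays. The 3 low arrays are 1 moderate and 2 severe. In the list of muscle atrophy, denervation and regeneration the median level relative to naive was 1.14, 0.40 and 1.33 on the moderate and 0.99, 1.55 and 0.45 on the severe arrays, and 15 of its 22 tested genes were lower in severe swelling.

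Other genes with high weight were low on a single pair of arrays. Tnxb, which encodes tenascin-X, a matrix protein of connective tissue, read 267.9, 444.3 and 39.3 with moderate and 506.5, 24 and 527.1 with severe swelling, and Pi16, a marker of adventitial fibroblasts, read 1830.1, 2735.2 and 318.8 against 1992.8, 204.1 and 2595.3. Moderate replicate 3 and severe replicate 2, the closest pair, were the low arrays in both. Prrc2a read 1055.1, 1043.1 and 176.3 against 1455, 235.1 and 1230, with the same 2 arrays low. Tnxb and Prrc2a were also uneven on the naive arrays, at 68, 840 and 802.9 and at 250.2, 1091.7 and 1181.8, and on the mild arrays, at 64.5, 399 and 25.9 and at 228.8, 1039.5 and 175.3. On the arrays with no swelling they were even, at 34.8 to 43.6 and at 187.4 to 248. Tnxb, Pi16 and Prrc2a each differed less between the grades than between arrays of a grade, with intervals that held 0.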

How the data were processed

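The authors deposited intensity signals, 1 array per sample, made with MAS5 (version not given) per the submitters' processing notes. The values are linear. Gene names came from the platform annotation held by GEO, parts of which can be out of date (34958 with 1 symbol, 932 with several, not used, and 9211 unnamed). Each of the 18193 genes kept its probe set with the highest mean; 14314 above the array's 40th percentile on at least 3 of 15 arrays were tested. Fits used log2(signal + 16), limma 3.58.1 in R 4.3.3, group means over all 15 arrays (10 residual, 5.52 prior degrees of freedom), an intensity trend and two-sided Benjamini-Hochberg adjustment over all genes. An exact permutation test of 3 against 3 cannot go below p = 0.1. The number of arrays limits the precision. Scripts were tested on simulated data.

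Named genes are those with the 10 lowest p in each direction, up to 3 per list, a panel, and the lowest p between the steps; Hnrnpul1, Nktr, Lamc1, the genes of the first component and list members outside this rule were named after their values were seen. The comparison and the 49 gene lists were chosen with earlier results of these data known. Alternatives were other pseudocounts (1 and 64), filters (none, 60th percentile), scalings (quantile, medians aligned, 9 hybridization control probe sets), averaging over probe sets, no trend, array weights, a fit of the compared groups alone, a replicate block, and each array left out.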

Additional observations from a re-analysis of the deposited data

How the results depend on the processing

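The count of 0 genes between severe and moderate swelling stayed 0 under all alternatives except scaling on hybridization controls, where it was 1, and leaving out single arrays, where it was 0 to 2. The count of genes within 2-fold stayed within 1.5 times of 12933 throughout, although the number tested changed with the filter. That limit was loose, since 12933 is already 90.4% of the 14314 genes tested. The 1 called probe set became 2 with a pseudocount of 1, with the filter at the 60th percentile and with quantile normalization, 3 on hybridization controls, 0 with medians aligned, 0 with only the groups compared, and 0 to 15 with single arrays left out. The 964 genes between moderate and mild swelling became 288 on hybridization controls, 4572 with array weights, 12 with only the groups compared (fewer arrays to estimate the spread), and 197 to 2033 with single arrays left out. The 0 genes for the difference between the steps became 15 on hybridization controls, 186 with array weights, and 0 to 72 with single arrays left out. The cause of these changes was not tested, and the array weights did not fully converge.

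With the replicate number as a block, 0 genes and 1 probe set were called between severe and moderate swelling, and 702 between moderate and mild. Of 1303 values of 73 named genes under the alternatives, 1262 kept the sign and 41, of 18 genes, had the other sign, none past the threshold. The deviations of same-numbered arrays from their group means correlated at -0.04, -0.51 and -0.20, and those of differently numbered arrays at -0.27 to 0.39. Deviations from a mean of 3 arrays depend on one another, so these values cannot show whether the numbers pair the samples. With 3 arrays a group, the dim genes limit what can be seen: their intervals were the widest.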
